A study of Mus musculus with 212 samples.

Results

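Zic1, En1, Tbx4, Tbx5, Tbx15, Tbx18, Pitx1, Emx2, Meox1 and Meox2 encode transcription factors that mark position in the body wall, limbs and dermis without belonging to the Hox clusters. They were chosen by name, with the difference between Bmal1-/- and WT cells already known, and make up 10 of the 47631 genes in the deposited table. Their transcripts were followed in skin fibroblasts of C57BL/6 mice, either lacking the clock gene Bmal1 (Bmal1-/-) or wild type (WT). All cultures were grown to confluence, received 100 nM dexamethasone for 15 min to align their clocks, and were first harvested 48 h later. The 212 libraries form 10 time courses, 5 per genotype. In the AM and PM courses, names that the labels leave unexplained, cells were harvested every 3 h from CT0 to CT48 (17 points a course). At 27, 32 and 37 °C they were harvested every 2 h from CT0 to CT46 (24 points a course). Each time point has 1 library, made from cells of 3 wells by the labels, and the number of cell preparations or animals per genotype is not stated. All p-values therefore measure the spread between time points of a course, and a temperature cannot be told apart from the culture it was measured in.

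Fibroblasts keep part of the transcription factor code that was laid down where they arose in the embryo, and this positional memory persists in culture. T-box, homeodomain and zinc finger proteins carry much of that code: Pitx1 and Tbx4 specify the hindlimb, Tbx5 the forelimb, Tbx15 and En1 the division between back and belly skin or upper and lower limb surfaces, Zic1 the dorsal body, Tbx18 and the Meox genes the somites, and Emx2 the shoulder blade, urogenital tract and forebrain. BMAL1, the product of Bmal1, pairs with CLOCK and binds E-boxes, short DNA elements with the letters CACGTG.

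Expression was deposited in FPKM, which divides fragments by the length of the transcript and the size of the library. Depth, estimated from the FPKM that a single read gives, ran from 9.94 to 32.3 M reads per library, with a median of 23.6 M, so a gene below 0.1 FPKM rests on a handful of reads. The targeted gene itself (Arntl, the symbol of Bmal1) did not check the labels, since it stood between 4.52 and 9.26 FPKM in Bmal1-/- libraries and between 2.81 and 10.2 FPKM in WT libraries, and the deleted part is not given. At 27 °C the CT14 pair did not match its genotype labels: Cdkn1a, which encodes a cell cycle inhibitor, had 3.87 FPKM in the library labelled Bmal1-/- and 110 FPKM in the one labelled WT, while its course means lay between 118 and 140 FPKM in Bmal1-/- and between 1.91 and 4.87 FPKM in WT. Both libraries were left out, which leaves 210. All 10 fibroblast markers examined averaged at least 1 FPKM in every course of both genotypes, and none of the 5 muscle markers did in any. The levels of the fibroblast markers moved with temperature, as given below. In all 48 libraries at 32 °C a single predicted gene, Gm26377 (singled out for its values), took up 18.8 to 34.2% of the summed FPKM, against at most 4.46% for the top gene of any other library.

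Only 5 of the 10 genes reached an average of 1 FPKM over the 210 libraries. In Bmal1-/- fibroblasts Tbx15 had the highest mean in every course, followed by Emx2, then Tbx18 and En1, and Zic1 was nearly silent. In WT fibroblasts Zic1 came first and Tbx15 next in every course, then Emx2 or En1, with Tbx18 in the fifth place. Neighbours in these orders overlapped in part: Zic1 and Tbx15 shared part of their range in 4 of 5 WT courses, all but 27 °C, and En1 and Emx2 did so in AM and at 32 and 37 °C and En1 and Tbx18 at 27 °C. In Bmal1-/- cells Tbx15 overlapped Emx2 in PM and at 37 °C, and Tbx18 overlapped En1 in AM, PM and at 37 °C. FPKM is a value per transcript length, so these levels may be set side by side. Tbx4, Tbx5, Pitx1, Meox1 and Meox2 averaged below 1 FPKM in every course of both genotypes.

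Zic1 (ENSMUSG00000032368, GRCm38 chromosome 9, 91358058 to 91365810, minus strand), a zinc finger gene of the dorsal neural tube and dorsal mesoderm, was the gene of the 10 with the widest gap between genotypes. In AM it had 0, 0.0387 and 0.299 FPKM (lowest, median and highest library) in Bmal1-/- cells, against 71.1, 84.2 and 104 FPKM in WT cells. At 27 °C it had 0, 0.0408 and 0.344 FPKM in Bmal1-/- cells, against 108, 137 and 158 FPKM in WT cells. No Bmal1-/- library came near a WT library: the highest of 105 had 0.559 FPKM, and 79 were above 0. The difference of mean log2(FPKM + 1), Bmal1-/- minus WT, was -6.32 in AM, -6.37 in PM, -7.01 at 27 °C, -6.54 at 32 °C and -6.25 at 37 °C. With Bmal1-/- values this close to 0, the added 1 FPKM holds the size of these differences down. With 0.1 FPKM added instead they were -9.03, -9.46, -9.72, -9.45 and -9.23 in the same order. Zic1 overlaps Zic4, a paralog on the opposite strand, and whether reads were counted by strand is not given, so reads in the shared stretch cannot be assigned to either gene with certainty.

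En1 (ENSMUSG00000058665, chromosome 1, 120602418 to 120607992, plus strand), a homeodomain gene known from the lower limb surface and from a scar-forming fibroblast lineage of back skin in mice, was low in Bmal1-/- cells but present in each library. In AM it had 1.56, 1.97 and 2.63 FPKM in Bmal1-/- cells, against 22.1, 26.4 and 32.2 FPKM in WT cells. At 37 °C the values were 0.619, 0.998 and 1.35 FPKM in Bmal1-/- cells, against 14.6, 17.7 and 21.9 FPKM in WT cells. The groups did not overlap in any course, and the mean log2 difference lay between -3.26 at 37 °C and -2.77 at 27 °C. With 0.1 FPKM added in place of 1 FPKM these were -4.08 at 37 °C and -3.36 at 27 °C. En1 overlaps no other annotated gene.

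Promoter windows, 250 bases before to 50 bases after the RefSeq gene start (build GRCm38.p6), were at hand for 6 of the 10 genes and were searched because the missing protein binds E-boxes. The letters CACGTG, which read the same on both strands, occur in the windows of Zic1 and En1, and in 7.15% of all 32851 promoter windows. The windows of Tbx4, Tbx18, Emx2 and Meox2 hold none. Those of Tbx4 and Emx2 lie inside the gene coordinates given here, downstream of the annotated gene start. Shown 5′ to 3′ on the strand of the gene are both windows with an E-box, its letters in capitals, and those of Emx2 and Tbx18, which differed between genotypes in the opposite direction to each other. The windows lie at chr9:91365719-91366018 (minus strand) for Zic1, chr1:120602237-120602536 (plus strand) for En1, chr19:59458440-59458739 (plus strand) for Emx2 and chr9:87731211-87731510 (minus strand) for Tbx18.
Zic1: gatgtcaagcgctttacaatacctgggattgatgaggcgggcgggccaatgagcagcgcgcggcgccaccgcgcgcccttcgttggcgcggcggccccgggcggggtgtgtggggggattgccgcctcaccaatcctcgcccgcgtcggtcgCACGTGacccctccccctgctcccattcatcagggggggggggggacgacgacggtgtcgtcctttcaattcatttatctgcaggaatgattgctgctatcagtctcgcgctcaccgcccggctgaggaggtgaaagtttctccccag
En1: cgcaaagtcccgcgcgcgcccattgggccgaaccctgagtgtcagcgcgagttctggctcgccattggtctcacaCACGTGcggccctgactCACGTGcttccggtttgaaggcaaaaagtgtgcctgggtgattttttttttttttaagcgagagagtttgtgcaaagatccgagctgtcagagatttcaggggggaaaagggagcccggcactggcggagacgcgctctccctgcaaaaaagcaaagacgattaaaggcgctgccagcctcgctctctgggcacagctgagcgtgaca
Emx2: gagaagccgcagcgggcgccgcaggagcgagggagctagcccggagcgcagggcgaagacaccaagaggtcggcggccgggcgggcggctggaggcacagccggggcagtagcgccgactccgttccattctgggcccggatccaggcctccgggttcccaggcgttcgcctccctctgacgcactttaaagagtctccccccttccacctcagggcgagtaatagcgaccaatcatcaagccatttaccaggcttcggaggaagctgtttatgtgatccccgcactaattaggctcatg
Tbx18: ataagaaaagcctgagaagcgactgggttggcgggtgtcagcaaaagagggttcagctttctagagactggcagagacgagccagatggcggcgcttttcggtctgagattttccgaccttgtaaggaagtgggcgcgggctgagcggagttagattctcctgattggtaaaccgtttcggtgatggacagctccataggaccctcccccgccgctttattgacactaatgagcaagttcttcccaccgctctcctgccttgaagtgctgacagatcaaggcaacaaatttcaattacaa
The E-box of Zic1 starts at base 153 of its window, and those of En1 start at bases 76 and 93. Other clock-related letters, searched on both strands, were absent from all 6 windows: CACGTT (in 4.68% of all promoters), AGGTCA (16.3%) and TTATGNAA (3.38%). CpG pairs number 31 in the Zic1 window, 26 in Emx2, 23 in En1 and 15 in Tbx18, against a median of 7 over all promoters. A match of letters shows no binding, and its absence concerns this window alone.

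Tbx18 (ENSMUSG00000032419, chromosome 9, 87702800 to 87731260, minus strand), a T-box gene of somites, ureter mesenchyme and hair follicle dermis, was lower in Bmal1-/- cells in all 5 courses. In PM it had 1.74, 2.39 and 4.18 FPKM in Bmal1-/- cells, against 8.66, 10.6 and 13.1 FPKM in WT cells. In AM the gap was narrower, with 1.69, 2.84 and 5.30 FPKM in Bmal1-/- cells, against 5.59, 6.78 and 10.8 FPKM in WT cells, so that the highest Bmal1-/- library lay just under the lowest WT library. The mean log2 difference was -1.01 in AM, -1.71 in PM, -1.37 at 27 °C, -1.32 at 32 °C and -1.58 at 37 °C.

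Emx2 (ENSMUSG00000043969, chromosome 19, 59458372 to 59465357, plus strand), a homeodomain gene needed for the shoulder blade and urogenital system, was higher in Bmal1-/- cells where cultures were in AM, PM or at 37 °C, and close to WT at 27 °C. At 37 °C it had 38.2, 46.1 and 54.9 FPKM in Bmal1-/- cells, against 18.6, 22.6 and 31.6 FPKM in WT cells, with no overlap. At 27 °C it had 22.9, 28.3 and 34.8 FPKM in Bmal1-/- cells, against 19.7, 27.3 and 34.8 FPKM in WT cells, and the groups covered nearly the same range. At 32 °C it had 26.02, 28.8 and 32.8 FPKM in Bmal1-/- cells, against 17.9, 22.5 and 30.6 FPKM in WT cells, the Bmal1-/- library being the higher at 23 of 24 time points. The mean log2 difference was 1.14 in AM, 1.11 in PM, 0.04 at 27 °C, 0.35 at 32 °C and 0.97 at 37 °C. Emx2os, an antisense transcript, overlaps Emx2 on the other strand.

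Tbx15 (ENSMUSG00000027868, chromosome 3, 99240381 to 99354259, plus strand), which sets the border between back and belly coat and shapes the skeleton in mice, was the gene of the 10 with similar and high levels in both genotypes. It averaged 68.3 ± 2.89 FPKM in Bmal1-/- cells and 65.8 ± 3.05 FPKM in WT cells in AM (SD, n = 17 each), and 67.4 ± 4.50 and 69.1 ± 3.90 FPKM in Bmal1-/- and WT cells in PM. At 32 °C it averaged 65.1 ± 4.43 FPKM in Bmal1-/- cells and 83.8 ± 3.79 FPKM in WT cells, and at 37 °C 51.3 ± 2.56 and 60.6 ± 2.47 FPKM in Bmal1-/- and WT cells (SD, n = 24 each). Ranges overlapped in all 5 courses, yet the Bmal1-/- library was the lower one at 24 of 24 time points at 32 °C and again at 37 °C, with mean log2 differences of -0.36 and -0.24.

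Over the 5 courses, 15 of 25 pairs of gene and course were lower in Bmal1-/- cells with ranges apart and at least a 2-fold difference, 2 were higher (Emx2 in AM and PM) and 8 were neither. Since the genes were listed with this contrast known, the count is a description. Pairs were counted at an average of 1 FPKM or more over both genotypes together, a limit also used for all genes. Zic1 passed it through WT cells alone in all 5 courses, and En1 did at 37 °C (0.979 FPKM in Bmal1-/- cells). Among all genes averaging 1 FPKM or more, the share lower on the same terms was 7.12% in AM, 7.54% in PM, 6.29% at 27 °C, 7.16% at 32 °C and 7.38% at 37 °C, and the share higher was 6.22%, 6.87%, 5.93%, 6.48% and 5.86% in the same order of courses. With the CT14 pair kept as labelled, the count of pairs that were lower or higher was 14, since Zic1, En1 and Tbx18 then overlapped at 27 °C, where 0% of all genes were apart. In bulk samples fewer cells of a type and less RNA per cell cannot be told apart.

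Markers of other connective tissue cells differed between the genotypes beside these genes. The 4 tendon markers (Tnmd, Scx, Mkx and Tnc) summed to between 6.17 and 49.9 FPKM over Bmal1-/- libraries and between 229 and 646 FPKM over WT libraries. In AM, Tnmd, a tendon membrane protein gene, averaged 0.285 FPKM in Bmal1-/- cells and 257 FPKM in WT cells. In Bmal1-/- courses 1 or 2 of these 4 averaged at least 1 FPKM, and in WT courses all 4 did. The 6 melanocyte and Schwann markers summed to 0.167 to 2.23 FPKM in Bmal1-/- libraries and to 2.89 to 21.2 FPKM in WT libraries, with Mlana at 0.0919 FPKM in Bmal1-/- and 8.87 FPKM in WT cells in AM and Sox10 at 0 in both. The 3 adipocyte markers in AM summed to 7.47 to 15.2 FPKM in Bmal1-/- libraries and to 0.421 to 2.62 FPKM in WT libraries, and at 37 °C to 9.46 to 15.9 FPKM in Bmal1-/- and 1.45 to 3.64 FPKM in WT libraries. At 27 °C, where Emx2 was close to WT, their sums were 0.754 to 2.81 FPKM in Bmal1-/- libraries and 0.347 to 1.95 FPKM in WT libraries. Their part in the levels of Zic1, En1, Tbx18 and Emx2 was not tested.

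**Figure D1:**
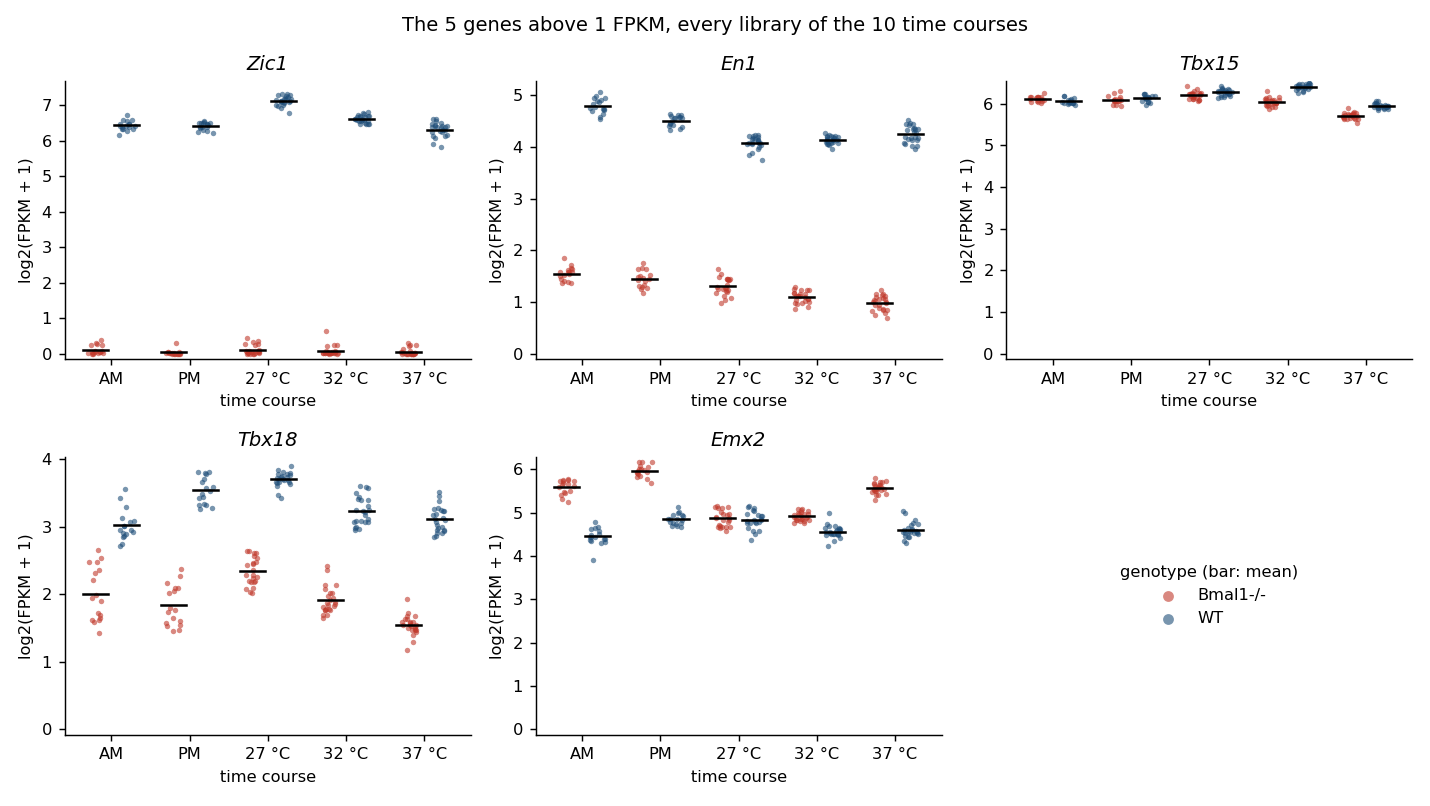
Level of Zic1, En1, Tbx15, Tbx18 and Emx2 as log2(FPKM + 1), in each library (points) of the AM, PM, 27, 32 and 37 °C courses, Bmal1-/- in red at the left of each pair and WT in blue, with the course mean as a black bar. Zic1, En1 and Tbx18 lie apart in all 5 courses, Tbx15 overlaps in all, and Emx2 lies apart in AM, PM and at 37 °C but not at 27 or 32 °C.

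The limb identity genes were close to the limit of detection. Tbx5 (ENSMUSG00000018263, chromosome 5, 119832668 to 119885219), the forelimb and heart T-box gene, was above 0 in 103 of 105 Bmal1-/- libraries and in 7 of 105 WT libraries. It averaged 0.182 ± 0.0790 FPKM in Bmal1-/- cells in AM and was listed at 0 in all 17 WT libraries there. In PM it had 0.0626, 0.189 and 0.369 FPKM in Bmal1-/- cells, against 0, 0 and 0.0721 FPKM in WT cells. Its Bmal1-/- course means at 27, 32 and 37 °C were 0.0932, 0.0534 and 0.0709 FPKM, so the gene was detected at each temperature and stood at a low level in all. The hindlimb genes Tbx4 (ENSMUSG00000000094, chromosome 11, 85886422 to 85916097) and Pitx1 (ENSMUSG00000021506, chromosome 13, 55825051 to 55836192) were scarcely seen in either genotype. Tbx4 was above 0 in 18 of 105 Bmal1-/- and 29 of 105 WT libraries, with a maximum of 0.0489 FPKM. Pitx1 was above 0 in 9 of 105 Bmal1-/- and 7 of 105 WT libraries, with a maximum of 0.117 FPKM.

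Meox1 and Meox2, related homeodomain genes of the somites, differed from each other. Meox2 (ENSMUSG00000036144, chromosome 12, 37108540 to 37179534), also known for limb muscle in mice, was above 0 in 1 of 105 Bmal1-/- libraries and in 85 of 105 WT libraries. This gene has a single annotated transcript, so its FPKM can be turned into estimated reads: 0.988 read in all Bmal1-/- libraries together, against 236 reads in the WT libraries. WT course means lay between 0.0286 FPKM at 27 °C and 0.0606 FPKM in AM. Meox1 (ENSMUSG00000001493, chromosome 11, 101877510 to 101894374) was above 0 in 92 of 105 Bmal1-/- and 84 of 105 WT libraries. By temperature it averaged 0.0202 ± 0.0242, 0.0959 ± 0.0403 and 0.156 ± 0.0700 FPKM in Bmal1-/- cells at 27, 32 and 37 °C, and 0.00793 ± 0.0189, 0.0336 ± 0.0233 and 0.0936 ± 0.0478 FPKM in WT cells in the same order (SD over time points). At 27 °C it was above 0 in 11 of 23 Bmal1-/- and 5 of 23 WT libraries, and at 37 °C in all 24 of either genotype. These 5 genes were too low for the tests reported next. In a fit with no filter on low values, Meox1 at 27 °C against 37 °C had a log2 difference of -0.18 ± 0.02 in Bmal1-/- cells and -0.12 ± 0.02 in WT cells (limma adjusted p = 1.98e-20 and 6.23e-11, ± SE), which the added 1 FPKM keeps small. The same fit gave Tbx5 0.03 ± 0.02 in Bmal1-/- cells, with an adjusted p of 0.115.

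**Figure D2:**
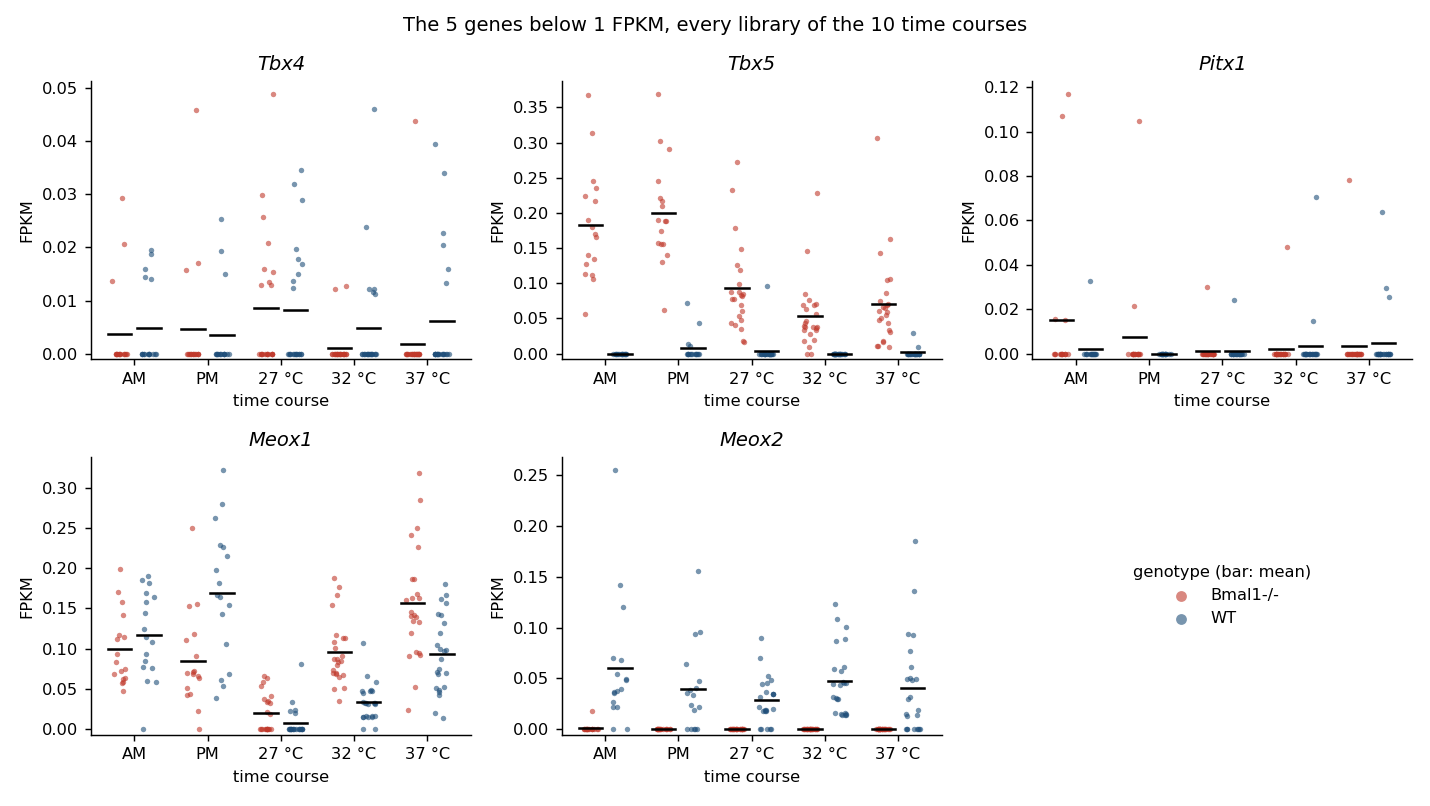
FPKM of Tbx4, Tbx5, Pitx1, Meox1 and Meox2 in each library (points) by course, Bmal1-/- in red at the left of each pair and WT in blue, with the course mean as a black bar and a separate vertical scale per gene. Tbx5 is spread above 0 in Bmal1-/- courses and Meox2 in WT courses, while Meox1 is lowest at 27 °C in both genotypes.

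Culture temperature was tested with limma on log2(FPKM + 1) for the 5 genes above 1 FPKM. The background was all 13031 genes that passed the same filter. The genes were not listed by temperature, but earlier results of these data were known when they were chosen. To be called, a gene needed a change of 2-fold or more besides an adjusted p below 0.05. Zic1 passed the filter through WT libraries alone and averaged under 0.1 FPKM in each Bmal1-/- course, where the added 1 FPKM holds any change near 0, so it is not read in Bmal1-/- cells or between genotypes. At 27 °C against 37 °C, 0 of 4 were called in Bmal1-/- cells and 0 of 5 in WT cells, where 11.7% and 13.7% of all tested genes were. By adjusted p alone 4 of 4 differed in Bmal1-/- cells and 5 of 5 in WT cells, against 85.9% and 87% of all genes, and the unadjusted p was under 0.05 for the same numbers of genes. The median of all tested genes moved by 0.21 in both genotypes, so each change is also given relative to it.

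Zic1 in WT cells had a mean of 139 ± 12.6 FPKM at 27 °C, 97.1 ± 6.83 FPKM at 32 °C and 79.1 ± 10.6 FPKM at 37 °C (SD, n = 23, 24 and 24). All 23 libraries at 27 °C lay above all 24 at 37 °C, the ranges being 108 to 158 and 55.5 to 96.8 FPKM. The log2 change at 27 °C against 37 °C was 0.83 ± 0.04 (SE, adjusted p = 3.55e-45), or 0.62 relative to the median. In Bmal1-/- cells the gene averaged 0.0860, 0.0589 and 0.0432 FPKM at 27, 32 and 37 °C.

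Of the 4 genes read in Bmal1-/- cells, Emx2 was the one lower at 27 and 32 °C than at 37 °C. It averaged 28.4 ± 3.77, 29.2 ± 2.05 and 46.5 ± 3.88 FPKM at 27, 32 and 37 °C, and neither the 27 °C nor the 32 °C range reached the lowest library at 37 °C. The log2 change was -0.70 ± 0.04 at 27 °C (adjusted p = 1.15e-30) and -0.65 ± 0.04 at 32 °C (adjusted p = 7.84e-28), or -0.91 and -0.78 relative to the median. In WT cells Emx2 averaged 27.7 ± 3.92, 22.7 ± 2.45 and 23.4 ± 3.13 FPKM at 27, 32 and 37 °C. Its change at 27 °C there was 0.23 ± 0.04 (adjusted p = 8.59e-07), 0.03 relative to the median and -0.00070 with median-of-ratios scaling, so no direction can be given.

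Tbx18 was higher at 27 °C in both genotypes. In Bmal1-/- cells it averaged 4.12 ± 0.724, 2.82 ± 0.568 and 1.93 ± 0.299 FPKM at 27, 32 and 37 °C, and the lowest library at 27 °C (3.06 FPKM) stood above the highest at 37 °C (2.81 FPKM). In WT cells it averaged 12.1 ± 0.939, 8.55 ± 1.41 and 7.74 ± 1.15 FPKM at 27, 32 and 37 °C, with some overlap between the outer temperatures. The log2 change at 27 °C was 0.79 ± 0.04 in Bmal1-/- cells (adjusted p = 1.58e-38) and 0.60 ± 0.04 in WT cells (adjusted p = 1.19e-28), or 0.59 in Bmal1-/- and 0.40 in WT cells relative to the median. With a pseudocount of 0.1 FPKM in place of 1 FPKM the change in Bmal1-/- cells was 1.04, past the 2-fold limit.

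Tbx15 was higher at 27 and 32 °C than at 37 °C in both genotypes. At 27, 32 and 37 °C its means were 72.7 ± 4.60, 65.1 ± 4.43 and 51.3 ± 2.56 FPKM in Bmal1-/- cells and 76.4 ± 3.91, 83.8 ± 3.79 and 60.6 ± 2.47 FPKM in WT cells. In WT the 32 °C course was thus above the 27 °C course, whereas in Bmal1-/- cells it lay between the others. The change at 27 °C was 0.49 ± 0.02 in Bmal1-/- cells and 0.33 ± 0.02 in WT cells (adjusted p = 4.34e-55 and 2.51e-38), or 0.29 and 0.12 relative to the median in Bmal1-/- and WT cells, and at 32 °C 0.34 ± 0.02 in Bmal1-/- cells and 0.47 ± 0.02 in WT cells (adjusted p = 5.00e-39 and 2.61e-52). En1 at 27 °C stood at 0.32 ± 0.03 in Bmal1-/- cells, with means of 1.48 ± 0.288 FPKM at 27 °C and 0.979 ± 0.191 FPKM at 37 °C (adjusted p = 2.57e-16). In WT cells it stood at -0.18 ± 0.03, with means of 15.9 ± 1.39 FPKM at 27 °C and 18.04 ± 2.09 FPKM at 37 °C (adjusted p = 3.74e-07). Relative to the median these were 0.11 in Bmal1-/- and -0.39 in WT cells, and in Bmal1-/- cells the value was 0.54 with a pseudocount of 0.1 FPKM.

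At 32 °C against 37 °C, 0 of 4 genes were called in Bmal1-/- cells and 0 of 5 in WT cells, where 2.74% of all genes in Bmal1-/- cells and 3.32% in WT cells were, and by adjusted p alone 4 of 4 in Bmal1-/- and 4 of 5 in WT cells differed, against 76.7% and 79.2% of all genes (the same numbers by unadjusted p). Zic1 in WT cells stood at 0.31 ± 0.04, or 0.18 relative to a median of 0.13, and Tbx18 at 0.37 ± 0.04 in Bmal1-/- cells and 0.12 ± 0.04 in WT cells, the last being -0.0094 relative to the median. En1 stood at 0.12 ± 0.03 in Bmal1-/- cells and -0.12 ± 0.03 in WT cells, or -0.0093 and -0.25 relative to the median, so no direction can be given in Bmal1-/- cells. With median-of-ratios scaling, Emx2 in Bmal1-/- cells at 32 °C stood at -0.79, and Tbx18 in WT cells at -0.00081. Fibroblast markers and some markers of other cells moved with temperature beside these genes. The 10 fibroblast markers summed to 8513 to 10910 FPKM at 27 °C and 12270 to 18690 FPKM at 37 °C over Bmal1-/- libraries. Over WT libraries the sums were 6841 to 8264 FPKM and 11120 to 13880 FPKM. Single fibroblast markers went either way. In Bmal1-/- cells Lum averaged 3.90 FPKM at 27 °C and 32.5 FPKM at 37 °C, and Fap 15.4 and 3.585 FPKM. The 3 adipocyte markers summed to 0.754 to 2.81, 1.75 to 3.28 and 9.46 to 15.9 FPKM over Bmal1-/- libraries at 27, 32 and 37 °C, and to 0.347 to 1.95, 1.16 to 3.52 and 1.45 to 3.64 FPKM over WT libraries. The 5 macrophage and leukocyte markers summed to 17.99 to 41.5, 2.70 to 5.24 and 1.17 to 3.07 FPKM over Bmal1-/- libraries at 27, 32 and 37 °C, and to 24.9 to 41.4, 9.99 to 18.7 and 6.43 to 10.03 FPKM over WT libraries. Most of the sum at 27 °C was Cd68 (26.8, 1.98 and 1.09 FPKM in Bmal1-/- and 30.6, 9.61 and 2.65 FPKM in WT cells at 27, 32 and 37 °C), while Lyz2 in WT went the other way (lowest at 27 °C, 3.22 FPKM at 32 °C and 4.96 FPKM at 37 °C), and the defining markers Adgre1 and Ptprc were at or near 0 throughout. Cdh1, an epithelial marker, averaged 3.77, 2.09 and 0.534 FPKM in Bmal1-/- cells at 27, 32 and 37 °C and under 0.1 FPKM in WT cells. The part of the fibroblast and adipocyte markers, Cd68 and Cdh1 in the temperature results was not tested.

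**Figure D3:**
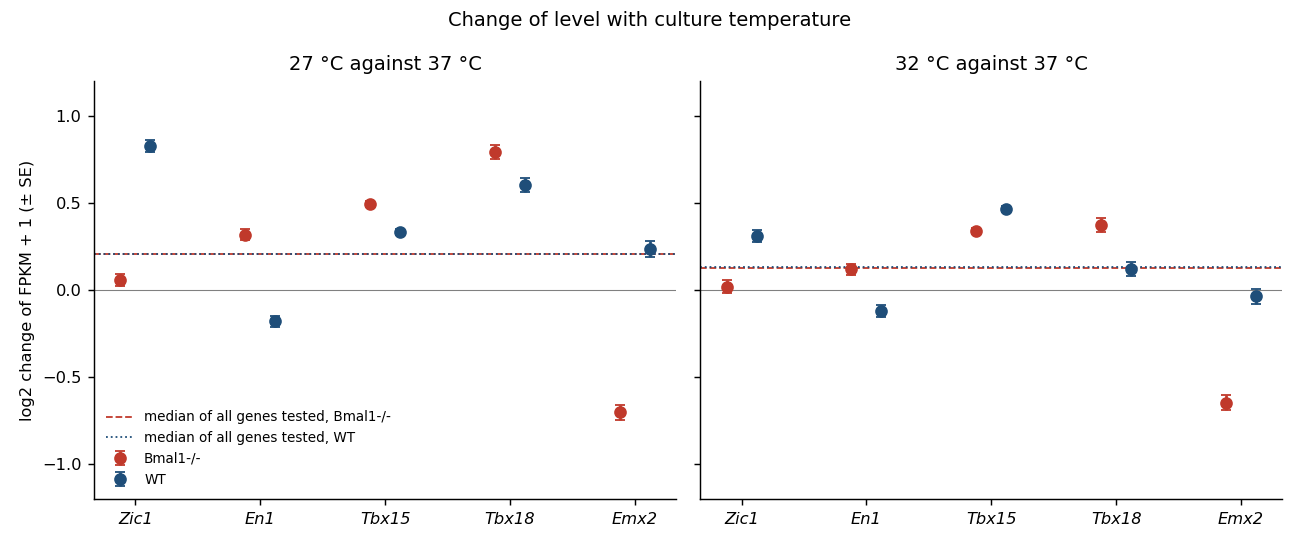
Log2 change of FPKM + 1 with its SE for Zic1, En1, Tbx15, Tbx18 and Emx2 at 27 °C against 37 °C (left panel) and at 32 °C against 37 °C (right panel), Bmal1-/- in red and WT in blue, with the median of all tested genes as dashed and dotted lines. Emx2 in Bmal1-/- cells lies at -0.70 and -0.65, while Zic1 in WT cells lies at 0.83 and 0.31 (in Bmal1-/- cells Zic1 is too low to read).

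A difference between genotypes in the effect of 27 °C was tested as an interaction, the change in Bmal1-/- cells minus that in WT cells. Of the 4 genes at 1 FPKM or more in both genotypes 0 passed the 2-fold limit, which 4.44% of all genes did, and 4 of 4 had an adjusted p under 0.05 (4 of 4 also by unadjusted p), against 68.8% of all genes. Emx2 had the most negative value, -0.94 ± 0.06 (adjusted p = 5.80e-28), with changes of -0.70 in Bmal1-/- and 0.23 in WT cells. En1 had 0.50 ± 0.05 (adjusted p = 2.81e-18), its values having opposite signs in the 2 genotypes. Tbx18 had 0.19 ± 0.06 and Tbx15 0.16 ± 0.02 (adjusted p = 0.00251 and 2.49e-09), the value of Tbx18 being 0.38 with a pseudocount of 0.1 FPKM. With the CT14 pair kept as labelled, at 32 °C En1 in both genotypes and Zic1 in WT cells no longer had an adjusted p under 0.05 (0.258 and 0.248 for En1 in Bmal1-/- and WT cells, 0.219 for Zic1).

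Between the PM and AM courses the differences were small. In Bmal1-/- cells 0 of 4 genes were called, where 1.16% of all 13307 tested genes were, and in WT cells 0 of 5, where 2.38% were. By adjusted p alone 2 of 4 passed in Bmal1-/- cells and 4 of 5 in WT cells, against 63.6% and 66.9% of all genes, and by unadjusted p the same numbers passed. Emx2 was higher in PM in both genotypes: 61.7 ± 5.95 FPKM in PM and 47.5 ± 5.34 FPKM in AM in Bmal1-/- cells, and 27.9 ± 2.69 FPKM in PM and 21.03 ± 2.85 FPKM in AM in WT cells. The log2 changes were 0.37 ± 0.06 in Bmal1-/- cells and 0.40 ± 0.06 in WT cells (adjusted p = 5.05e-08 and 8.53e-09). Tbx18 in WT cells was at 10.75 ± 1.60 FPKM in PM and 7.25 ± 1.39 FPKM in AM, a change of 0.52 ± 0.08 (adjusted p = 3.65e-07), while in Bmal1-/- cells it was at -0.17 ± 0.08 (adjusted p = 0.0819), a difference between genotypes that was not tested. En1 stood at -0.30 ± 0.04 in WT cells and -0.10 ± 0.04 in Bmal1-/- cells (adjusted p = 2.24e-09 and 0.0251).

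Rhythm was tested as a 24 h cosine of any phase in a genotype's courses together. In the Bmal1-/- temperature courses 1 of 4 genes, Tbx15, was called (adjusted p = 0.000565), as were 15.1% of all genes. Its fitted peak fell at CT16.3, CT16.3 and CT16.6 at 27, 32 and 37 °C, with amplitudes of 0.09 ± 0.02, 0.05 ± 0.02 and 0.04 ± 0.02 (log2, from mid-level to peak). This is a small swing on a level of 45.4 FPKM or more. The ± beside each amplitude is the SE of the cosine term alone, not of the amplitude itself. In the AM and PM courses of Bmal1-/- cells its fitted peaks were at CT12.9 and CT16.1, with amplitudes of 0.05 ± 0.02 and 0.09 ± 0.02 and an adjusted p of 0.0849. By limma 0 of 4 genes were called in the Bmal1-/- AM and PM courses (5.97% of all genes), and 0 of 5 in WT in the temperature courses (5.72%) or in AM and PM (10.1%). At an unadjusted p under 0.05 the counts of these 3 tests were 1 of 4, 0 of 5 and 0 of 5. The genes farthest apart between genotypes, Zic1 and En1, had no detectable 24 h cosine in WT cells at 1 library per time point.

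A linear trend over the sampled time was called for Tbx18 and En1, around which single libraries scattered. Tbx18 fell by 0.28 ± 0.07 per 24 h on the log2 scale in the AM and PM courses of Bmal1-/- cells (adjusted p = 0.00554), where 6.43% of all genes fell and 7% rose. In AM it averaged 3.86 FPKM before CT24 and 2.59 FPKM from CT24 on, and in PM 2.82 and 2.49 FPKM. In WT cells it fell by 0.19 ± 0.03 per 24 h over the temperature courses (adjusted p = 1.94e-07), where 21% of all genes fell and 18.6% rose. By course, Tbx18 in WT at 32 °C averaged 9.68 FPKM before CT24 and 7.41 FPKM from then on, at 37 °C 8.63 and 6.85 FPKM, but at 27 °C 11.8 and 12.3 FPKM. En1 rose by 0.16 ± 0.03 per 24 h in the AM and PM courses of WT cells (adjusted p = 0.000289), where 11.4% of all genes rose and 12.2% fell, and its lowest and highest AM libraries were the first and the last, with 22.1 FPKM at CT0 and 32.2 FPKM at CT48. In the Bmal1-/- temperature courses 0 of 4 genes drifted by limma (1 of 4 at an unadjusted p under 0.05), where 14.7% of all genes rose and 17.9% fell.

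**Figure D4:**
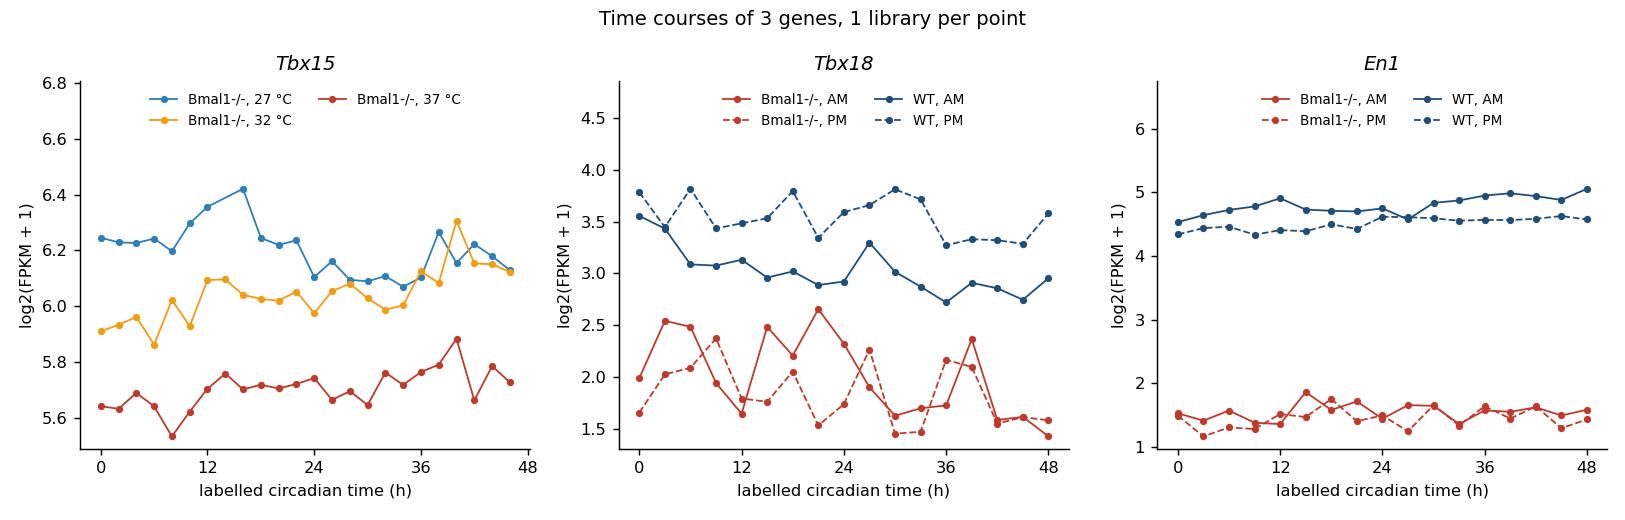
Log2(FPKM + 1) by labelled circadian time (h), 1 library per point: Tbx15 in Bmal1-/- cells at 27 °C (blue), 32 °C (orange) and 37 °C (red), and Tbx18 and En1 in the AM (solid) and PM (dashed) courses of Bmal1-/- (red) and WT (blue) cells. Tbx15 at 27 °C is highest at CT16, Tbx18 in Bmal1-/- AM averages 3.86 FPKM before CT24 and 2.59 FPKM from then on, and En1 in WT AM is lowest at CT0 and highest at CT48.

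Paralogs and partners of these genes also differed between genotypes, on lists that were drawn up with earlier results known. Beside the counts in AM stand 6.22% of all genes higher and 7.12% lower on the same terms, and beside those at 37 °C 5.86% and 7.38%. The 1 FPKM limit was set on the mean over both genotypes together, for these lists and for all genes. A gene near 0 in one genotype, such as Zic4 and Tbx1 here or Tfap2a and Grem1 below, was thus counted through the other. Of 21 paralogs only 4 averaged 1 FPKM or more in AM (3 at 37 °C). With ranges apart and at least 2-fold, 2 were higher and 1 lower in Bmal1-/- cells in AM (1 and 1 at 37 °C). Zic4 averaged 0.0224 FPKM in Bmal1-/- cells and 6.72 ± 1.66 FPKM in WT cells, the same direction as its neighbour Zic1. Tbx3, a T-box gene of limb and mammary gland, averaged 26.2 ± 2.17 FPKM in Bmal1-/- cells and 8.76 ± 1.39 FPKM in WT cells. Tbx1, a pharyngeal arch gene, averaged 2.06 ± 0.393 FPKM in Bmal1-/- cells and 0.00219 FPKM in WT cells.

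Of 62 other regulators of limb, body wall and dermis, 28 reached 1 FPKM in AM, of which 5 were higher and 8 lower in Bmal1-/- cells, with a median difference of -0.64 against 0.02 over all genes. The factors with the largest differences were Tfap2a (0.0227 FPKM in Bmal1-/- and 10.9 FPKM in WT cells), a neural crest and skin regulator, Gata4 (8.74 FPKM in Bmal1-/- and 0.0754 FPKM in WT cells), a heart and gut mesoderm gene, Alx4 (5.78 FPKM in Bmal1-/- and 0.00883 FPKM in WT cells), a gene of the anterior limb bud, and Mkx (0.685 FPKM in Bmal1-/- and 8.999 FPKM in WT cells), a tendon factor. At 37 °C the list had 5 higher and 11 lower of 28. Among 11 homeodomain cofactors, the partners with which Hox and related proteins bind DNA, 4 were higher and 0 lower in AM. In each other course 4 were higher and 1 lower, beside the shares of all genes given above. Their median difference was 0.15 in AM and -0.22 at 37 °C. The 4 in AM were Meis3 (19.1 FPKM in Bmal1-/- and 4.45 FPKM in WT cells), Pbx4 (4.73 and 0.738 FPKM), Pknox2 (13.8 and 4.28 FPKM) and Meis1 (20.5 and 9.25 FPKM). Of 27 limb and dermis signals 14 were measured in AM, and 1 was higher and 4 lower. Grem1, an inhibitor of BMP signals, averaged 0.251 FPKM in Bmal1-/- cells and 57.2 ± 11.1 FPKM in WT cells, the largest gap in this list, followed by Dkk2, a WNT modulator (0.555 and 8.30 FPKM), and the ephrin receptor gene Epha3 (0.00219 and 3.79 FPKM). The receptor Epha4 was higher, at 15.0 FPKM in Bmal1-/- cells and 5.13 FPKM in WT cells.

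At 27 °C against 37 °C the calls in these lists stand beside 11.7% of all genes in Bmal1-/- and 13.7% in WT cells. Zic4 in WT cells averaged 31.6 ± 5.79 FPKM at 27 °C, 8.46 ± 2.12 FPKM at 32 °C and 7.17 ± 1.51 FPKM at 37 °C, and it rose by 2.004 ± 0.05 at 27 °C against 37 °C (adjusted p = 1.13e-66). It was the one paralog of 3 tested that was called in WT cells, and 0 of 3 were called in Bmal1-/- cells. Of 28 other regulators, Mkx was the one that fell in WT cells (-1.47 ± 0.07, adjusted p = 6.60e-39), and 0 were called in Bmal1-/- cells. Of 11 cofactors 2 were called in Bmal1-/- cells, Pbx4 (1.62 ± 0.08) and Pknox1 (-1.13 ± 0.03), and 0 in WT cells. Among 14 signals, WT cells had 2 higher and 3 lower: Rarb, a retinoic acid receptor gene (2.74 ± 0.04, 14.6 FPKM at 27 °C and 1.403 FPKM at 37 °C), Cyp26b1, which degrades retinoic acid (2.46 ± 0.04), Grem1 (-2.52 ± 0.04, 22.3 FPKM at 27 °C and 136 FPKM at 37 °C) and Dkk2 (-1.86 ± 0.04) were those of largest size. In Bmal1-/- cells the growth factor receptor gene Fgfr1 was called (1.12 ± 0.02, 315 FPKM at 27 °C and 146 FPKM at 37 °C). The interaction was called for 1 of 3 paralogs, 2 of 28 other regulators, 2 of 11 cofactors and 4 of 14 signals, beside 4.44% of all genes. Of these genes 6, Zic4, Mkx, Pbx4, Grem1, Rarb and Dkk2, averaged under 1 FPKM at both temperatures in one genotype, where the added 1 FPKM holds their change down, and are not read further. The other 3 were Irx5 (1.09 ± 0.05), with 9.92 FPKM at 27 °C and 5.23 FPKM at 37 °C in Bmal1-/- cells and 6.96 and 8.64 FPKM in WT cells, Pbx3 (1.04 ± 0.07), with 7.44 and 3.63 FPKM in Bmal1-/- and 11.05 and 12.45 FPKM in WT cells, and Cyp26b1 (-2.13 ± 0.06), with 1.63 and 1.09 FPKM in Bmal1-/- and 18.7 and 2.56 FPKM in WT cells. Their largest adjusted p in limma was 5.19e-28.

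Over the 10 course means, the genes most like each of the 5 were sought among 13163 genes by Pearson's r of mean log2(FPKM + 1), as a description in which the step between genotypes weighs most. Zic1 was most like Hoxa7 (r = 0.999), Hoxb9 and Morc1, and 334 genes had an r over 0.95. For En1, 335 genes had an r over 0.95, with Enpp2 (0.994) and Unc93b1 among the closest. Tbx18 was most like Kirrel (0.993), the clock gene Per3 (0.989) and Zfp664. Emx2 and Tbx15, whose levels do not split cleanly by genotype, had fewer genes like them: Dusp19 (0.975), Col20a1 and Plekhg3 for Emx2, with 7 genes over 0.95, and Mir22hg (0.940), Smarca4 and Hp1bp3 for Tbx15, with 0 over 0.95. Among themselves, over 105 libraries per genotype that share courses, Tbx15 and Tbx18 had r = 0.63 in Bmal1-/- cells and 0.30 in WT cells. Tbx18 and Emx2 had -0.42 in Bmal1-/- and 0.51 in WT cells. Zic1 and Tbx18 had 0.63 in WT cells, while in Bmal1-/- cells Zic1 is too low to read.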

How the data were processed

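Transcripts of mouse skin fibroblasts, WT or Bmal1-/-, were measured by poly(A) RNA-seq with stranded, single-end libraries of 101 bases, per the labels. The authors deposited FPKM per gene, and GRCm38 and the tools Cuffdiff, TopHat and TopHat2 2.1.0 appear in the submitters' processing notes. No source states the annotation, the strand setting of the counting or how libraries were scaled. Of 47631 gene IDs, 47217 matched a symbol in an annotation of the same build. Depth was estimated from low values of 1357 single-transcript genes, with 94.3% of them falling no more than 0.15 from a whole read. Sequences came from RefSeq tables.

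Values were tested as log2(FPKM + 1) with limma 3.58.1 in R 4.3.3 (lmFit, eBayes with trend, Benjamini-Hochberg over all genes tested), for genes averaging 1 FPKM or more, in a fit of 142 temperature libraries and a fit of 68 AM and PM libraries. Each course had an intercept, a linear time term and a 24 h cosine and sine. In the tests, members were counted where they averaged 1 FPKM or more in each genotype compared, a rule set after seeing that Zic1 was near 0 in Bmal1-/- cells. The counts of genes apart between genotypes used the mean over both genotypes of a course instead. Levels and interactions were called at 2-fold or more with an adjusted p below 0.05, rhythm (F test) and drift at an adjusted p under 0.05. The added 1 FPKM shrinks differences of genes near 0. The fits were tested on simulated data with independent noise, and with larger level changes and rhythms than fitted for the 10 genes. That test does not cover changes as small as theirs. Alternatives were another pseudocount, other filters, median-of-ratios scaling, the CT14 pair kept, no linear term, course intercepts only and a block by time point. The genotype contrast had been used in choosing the genes and was described without a test. The interaction contains that contrast, and its p-values are given as a description. Members, lists and tests were chosen with earlier results of these data known. Named are all 10 genes, up to 4 called genes of largest change per list and comparison, and the 3 genes most alike in course means, of which 1 is not reported here. Python 3.11.15, pandas 2.3.3, numpy 2.4.6 and matplotlib 3.10.9 were used.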

Additional observations from a re-analysis of the deposited data

Results flagged for a closer look

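The difference of 27 °C against 37 °C differed between the genotypes in the 4 genes above 1 FPKM in both (limma interaction, Bmal1-/- minus WT, adjusted p under 0.05 in each, as for 68.8% of all genes). The values were -0.94 for Emx2, 0.50 for En1, 0.19 for Tbx18 and 0.16 for Tbx15, all under the 2-fold limit. The interaction contains the genotype difference, which was known when the genes were listed, so these values are a description.

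The libraries labelled CT14 at 27 °C, left out of every comparison, held levels of the other genotype. Zic1 had 121 FPKM in the library labelled Bmal1-/- and 0.107 FPKM in the library labelled WT, and En1 had 15.97 FPKM in the library labelled Bmal1-/- and 1.86 FPKM in the library labelled WT. Tbx18 had 11.9 FPKM in the library labelled Bmal1-/- and 5.21 FPKM in the library labelled WT.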

How the results depend on the processing

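The 518 recomputed values included counts, which have no sign. Among the log2 changes of single genes, 328 kept their sign and their call, 1 kept its sign and became called, and 6 reversed their sign. Under median-of-ratios scaling these were Emx2 in WT at 27 °C against 37 °C (-0.00070), Tbx18 in WT at 32 °C against 37 °C (-0.00081) and Tbx15 in WT in PM against AM (-0.056). With the CT14 pair kept they were the drifts of En1 in the Bmal1-/- (-0.0398) and Zic1 in the WT temperature courses (0.169), and with a pseudocount of 0.1 FPKM the drift of Zic1 in the Bmal1-/- AM and PM courses (-0.0186), none of which was called. With a pseudocount of 0.1 FPKM, 1 of the genes (Tbx18, 1.04) instead of 0 was called in Bmal1-/- cells at 27 °C. With no filter on low values, 2 instead of 1 drifted in the Bmal1-/- AM and PM courses (Tbx4 in addition) and 1 instead of 0 was rhythmic there (Tbx5, adjusted p = 0.0348), both genes below 1 FPKM. No other count of called members moved by over 1.5 times. With the CT14 pair kept, the pairs of gene and course apart between genotypes numbered 14 (17 as reported). Over all genes, a pseudocount of 0.1 FPKM gave 645 calls in Bmal1-/- and 725 in WT cells at 32 °C against 37 °C (357 and 432 as reported), 889 interactions (579), and 311 and 541 in Bmal1-/- and WT cells for PM against AM (155 and 317). Keeping the CT14 pair gave 1238 rhythmic genes in the Bmal1-/- and 408 in the WT temperature courses (1973 and 745), and leaving out the linear term gave 1380 in the WT temperature courses and 751 in the WT AM and PM courses (1341). With the time point as a replicate block, the counts of members called were 0 in every level comparison and in the interaction, as without it. Libraries of the same time were compared between 27 and 37 °C and between AM and PM within each genotype. The median correlation of their deviations was 0.03 to 0.06, and the highest was 0.20. Of 17 time points in AM and PM, 4 exceeded 0.1 in each genotype. Of 23 at 27 and 37 °C, 2 did in Bmal1-/- and 3 in WT cells. Low correlations of this kind do not show that the libraries were handled apart. Depth limits what can be read from Tbx4, Tbx5, Pitx1, Meox1 and Meox2, which rest on few reads per library.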
